A study of Mus musculus with 12 samples.

Results

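The contactin and L1 families comprised 10 genes in the deposited table, the 6 contactins *Cntn1* to *Cntn6* and the 4 L1 genes *Chl1*, *L1cam*, *Nrcam* and *Nfasc*, out of 54532 genes listed. They were taken by family membership, and the group was singled out with the contrast between iCreb5 and tdTomato cells already known, so that contrast is described for them and not used as support. Of the 10 genes, 9 passed the filter on low values (a normalised count of 10 or more in 6 or more libraries) and were fitted, and *Cntn2* did not. The libraries came from E14.5 mouse limb bud mesenchyme, sorted by fluorescence at about 250K to 500K cells each. All embryos carried Prrx1-Cre, a driver active in limb bud mesenchyme. In 6 libraries the cells expressed HA-tagged bovine Creb5 with GFP from the Rosa26 locus (iCreb5), and in 6 they expressed tdTomato from that locus. Creb5 is a transcription factor of the CREB and ATF family. Each group held 3 libraries of litter 3 and 1 library each of litters 4, 5 and 6. The labels show these 4 litters where the design text speaks of 6, and as the batch label changes with the litter, these cannot be told apart. The labels do not say whether 1 embryo or several went into a library, so p-values reflect only how these libraries vary.

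Contactins are immunoglobulin superfamily proteins held to the cell surface by a lipid anchor, and L1 proteins are their relatives with a membrane-spanning segment and a cytoplasmic tail that binds ankyrin. Both bind each other and further partners at the surface of neurons and glia, where they guide axons and organise nodes of Ranvier. In the embryonic limb they are best known from the nerves that grow into it.

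Sequencing depth ran from 9.02 to 53.3 M recovered reads per library, and 3 reads corresponded to 1.48 to 8.38 normalised counts. The 10 limb mesenchyme markers were all above the filter, and their summed level was 36232 to 38648 in iCreb5 and 29208 to 37063 in tdTomato libraries. With limma (adjusted p under 0.05) *Meox2* and *Osr2* were higher in iCreb5 and 0 lower, beside 3.87% and 2.85% of all genes. The median log2 change of the 10 was -0.089. In bulk libraries, fewer cells of a type and less RNA per cell cannot be told apart.

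The 3 neighbouring genes *Chl1*, *Cntn6* and *Cntn4* of chromosome 6 were higher in every iCreb5 library than in any tdTomato library, by 2.06-fold, 3.27-fold and 3.74-fold. These were the 3 of 9 fitted genes (33.3%) that limma called higher, and 0 were called lower. Over all 16733 genes fitted, 3.87% were called higher and 2.85% lower (5.13% and 4.35% with litter as a term). All iCreb5 libraries lay above all tdTomato libraries for 2.83% of genes and below them for 1.92%. Since the group was chosen on this contrast, nothing is read from that difference. At an unadjusted p under 0.05 with limma, 4 of the 9 were higher and 0 lower. That threshold is looser than the one behind the shares of all genes, so the 2 cannot be compared. EdgeR and DESeq2 each called 3 higher and 0 lower. Over all genes edgeR called 3.83% higher and 2.81% lower, and DESeq2 5.51% and 4.27%. The median log2 change was 0.78 over the 9 genes and 0.00 over all genes.

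**Figure D1:**
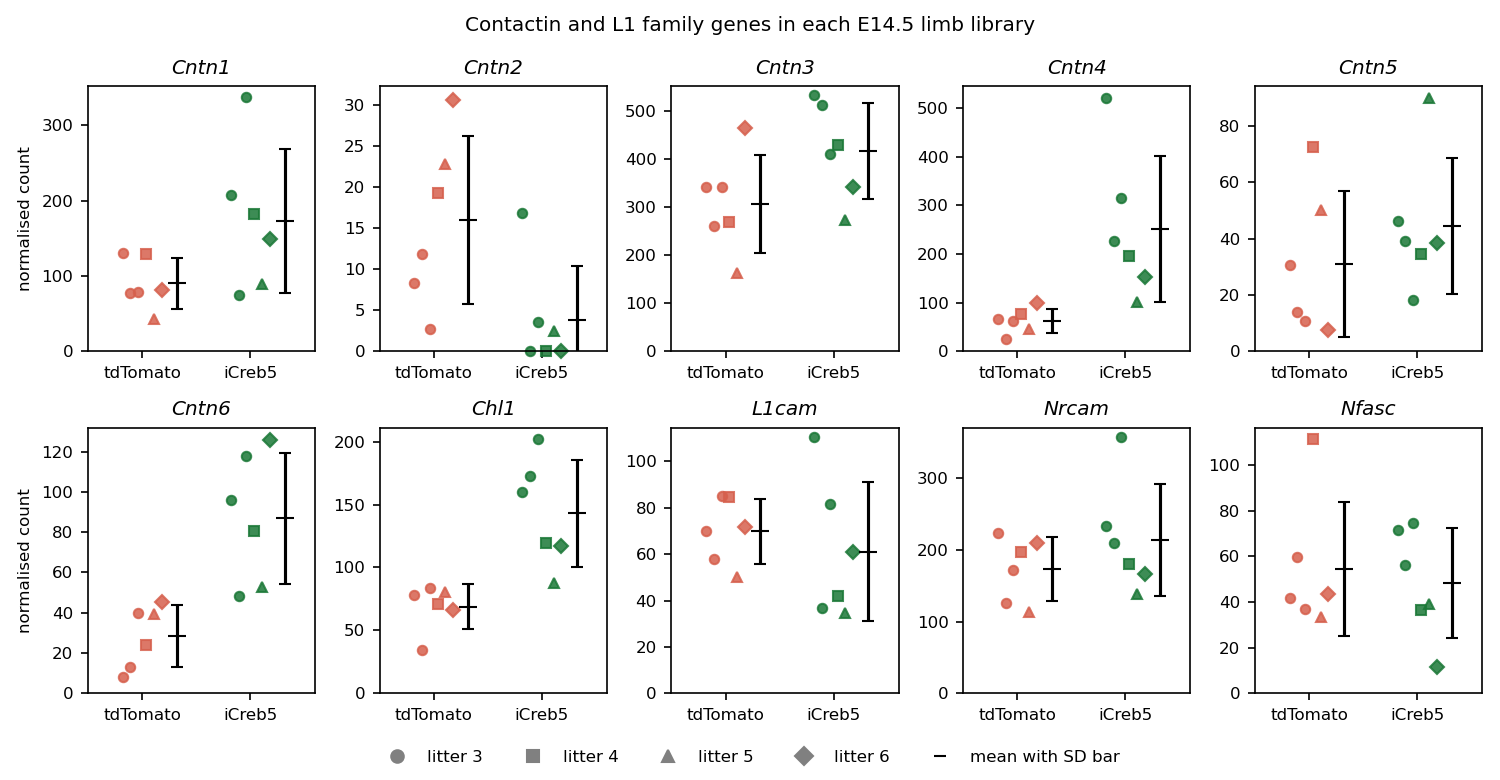
Normalised counts (linear axis from 0, its range set per gene) of the 10 genes in each of the 12 libraries, 1 point per library with the litter as its shape, beside the mean and SD of each group. For *Chl1*, *Cntn6* and *Cntn4* every iCreb5 point lies above every tdTomato point, and for the other 7 genes the groups overlap.

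The 4 family genes on chromosome 6 lie in the order *Cntn3*, *Chl1*, *Cntn6*, *Cntn4*. Their sequence just upstream of a RefSeq start (GRCm38.p6) is shown because the transgene encodes a factor of the family that binds the cyclic AMP response element. For *Chl1* and *Cntn6*, GENCODE annotates an exon across the window, so only the last 30 bases are given. Capitals mark the core letters CGTCA of that element.
*Cntn4*, chr6:106118515-106118764, plus strand: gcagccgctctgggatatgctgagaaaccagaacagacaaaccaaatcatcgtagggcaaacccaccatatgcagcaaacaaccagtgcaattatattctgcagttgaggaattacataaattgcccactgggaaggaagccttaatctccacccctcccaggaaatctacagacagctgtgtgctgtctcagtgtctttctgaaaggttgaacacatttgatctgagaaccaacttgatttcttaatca
*Cntn3*, chr6:102464668-102464917, minus strand: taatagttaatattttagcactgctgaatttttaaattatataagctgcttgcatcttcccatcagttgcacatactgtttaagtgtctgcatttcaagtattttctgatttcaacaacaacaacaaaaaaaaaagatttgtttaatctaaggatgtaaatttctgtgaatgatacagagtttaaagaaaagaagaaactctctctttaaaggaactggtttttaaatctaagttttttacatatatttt
*Cntn6*, chr6:104493014-104493043, plus strand: cctcaagaactaattgtctaggttcCGTCA
*Chl1*, chr6:103510846-103510875, plus strand: agatcccggggacagcagaaaagaggcgcg

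All 10 genes matched at least 1 RefSeq window of 250 bases, 16 windows in all, and both strands were searched. Of the 16 windows, 9 were free of annotated exons. The full element TGACGTCA was in 0 of the 16 windows and in 1.55% of 32851 windows of all genes. The core (TGACG or CGTCA, each contained in the full element) was in 2, that of *Cntn6* and 1 of *Cntn1*, and in 17.8% of all windows. The AP-1 site (TGACTCA or TGAGTCA) was in 0, against 4.46% of all windows. The *Cntn4* window shown was 44.4% G and C and that of *Cntn3* 26.4%, beside a median of 52.4% over all windows. Another *Cntn4* window, not shown and partly within an annotated exon, was 50% G and C. These are matches of letters in short windows, and the RefSeq starts of *Cntn4* and *Cntn3* lie inside the longer GENCODE gene spans.

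*Cntn4*, a contactin that binds amyloid precursor protein family members, spans 1022 kb (chr6:105677660-106699310, plus strand, GENCODE M21 on GRCm38). Its normalised counts in iCreb5 were 521, 226 and 316 in litter 3 (libraries 3a, 3b and 3c) and 196, 101 and 153 in litters 4, 5 and 6. In tdTomato they were 67.0, 26.2 and 63.0 in litter 3 and 76.3, 45.6 and 99.4 in litters 4, 5 and 6. The lowest iCreb5 library, of litter 5, lay just above the highest tdTomato library, of litter 6, so the groups did not overlap but nearly met. The means were 252 ± 150 and 62.9 ± 25.2 (SD, n = 6 each), a log2 change of 1.90 ± 0.37 (SE). Within litters the ratio of means was 6.81 in litter 3, 2.57 in litter 4, 2.21 in litter 5 and 1.54 in litter 6.

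*Cntn6*, a contactin that acts as a Notch ligand in neural cells, lies upstream of it (chr6:104492790-104863406, plus strand). The iCreb5 libraries held 96.1, 48.3 and 118 in litter 3 and 80.8, 52.6 and 126 in litters 4, 5 and 6. The tdTomato libraries held 8.38, 13.3 and 39.7, and then 23.9, 39.6 and 45.5. The groups did not overlap, although iCreb5 3b and tdTomato 6d were close, and the 8.38 of tdTomato 3a rested on 3 reads. The log2 change was 1.71 ± 0.41 (SE), with means of 86.9 ± 32.5 and 28.4 ± 15.5 (SD, n = 6 each). The litter ratios were 4.27, 3.38, 1.33 and 2.76 for litters 3 to 6.

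*Chl1*, the close homologue of L1, is a neurite growth and migration molecule (chr6:103510586-103750211, plus strand). In iCreb5 it stood at 160, 172 and 202 in litter 3 and at 120, 87.4 and 117 in litters 4, 5 and 6. In tdTomato it stood at 78.2, 34.6 and 83.6, and then at 70.7, 80.6 and 66.0. The groups were separate, but in litter 5 the libraries differed little, with a ratio of 1.08 against 2.72 in litter 3. The means were 143 ± 42.4 and 69.0 ± 18.05 (SD, n = 6 each), a log2 change of 1.04 ± 0.26 (SE). Without iCreb5 3a, 3b or 3c the log2 change was 0.999, 0.98 or 0.93, and limma's adjusted p then lay between 0.0555 and 0.0597, so that the call was lost. It was also lost with litter as a term and the litter 3 libraries of each group averaged, where the log2 change was 0.80 (limma adjusted p = 0.143).

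**Figure D2:**
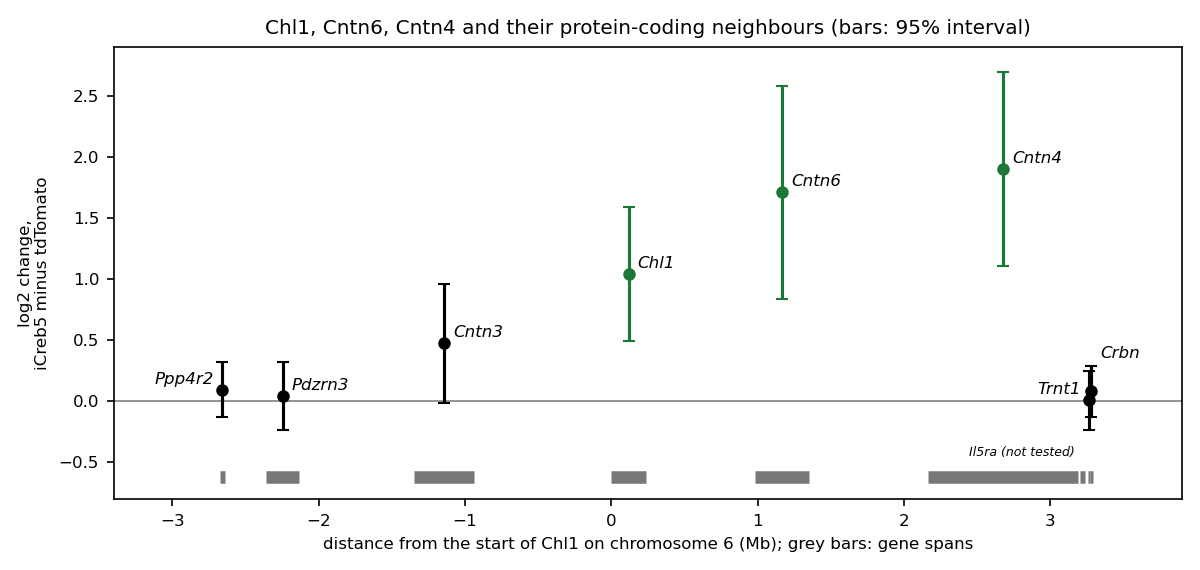
Log2 change (iCreb5 minus tdTomato) of the genes around *Chl1*, *Cntn6* and *Cntn4* by distance from the *Chl1* start in Mb, with 95% intervals as bars, genes past the threshold in green and gene spans in grey. The 3 genes lie at 1.04 to 1.90 and *Cntn3* at 0.47. The fitted flanking genes outside the family, *Ppp4r2*, *Pdzrn3*, *Trnt1* and *Crbn*, lie between 0.01 and 0.10.

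No other protein-coding gene is annotated between *Chl1* and *Cntn4*. The gaps are 743 kb between *Chl1* and *Cntn6* and 814 kb between *Cntn6* and *Cntn4*. On the near side lies *Cntn3*, 937 kb from *Chl1* (log2 change 0.47, limma adjusted p = 0.292). Then come *Pdzrn3* (0.05, 0.905) and *Ppp4r2* (0.10, 0.712). On the far side *Il5ra* was at 0 in all iCreb5 libraries and at a mean of 0.459 in tdTomato, and was not fitted. Beyond it *Trnt1* (0.01, 0.986) and *Crbn* (0.08, 0.742) did not pass the threshold. Of the 4 fitted flanking genes outside the family 0 passed, and *Cntn3* did not pass.

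*Cntn3*, the fourth chromosome 6 gene (chr6:102162655-102573101, minus strand), stood at 533, 511 and 410 in litter 3 and at 428, 272 and 341 in litters 4, 5 and 6 of iCreb5. In tdTomato it stood at 341, 259 and 341, and then at 269, 163 and 464. The groups overlapped, with tdTomato 6d above 4 of the iCreb5 libraries. Its log2 change was 0.47 (95% interval -0.01 to 0.96).

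*Cntn1*, a binding partner of Caspr at the edges of nodes (chr15:92051165-92341967, plus strand), stood at 207, 74.7 and 337 in litter 3 and at 182, 89.1 and 150 in litters 4, 5 and 6 of iCreb5. In tdTomato the counts were 131, 78.1 and 79.5, and then 129, 42.6 and 80.9. The groups overlapped through iCreb5 3b and 5. The log2 change was 0.85 ± 0.35 (SE) and the call was not made, though the 95% interval, before adjustment, reached from 0.10 to 1.602.

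*Cntn5*, a contactin of the auditory and visual pathways (chr9:9660891-10904775, minus strand), stood at 46.4, 39.1 and 18.2, then 34.5, 89.9 and 38.6 in iCreb5. In tdTomato it stood at 30.7, 13.8 and 11.0, then 72.6, 50.2 and 7.44. The groups overlapped widely and the log2 change was 0.78 (95% interval -0.32 to 1.89). Its exons overlap the opposite-strand *Gm32710*, which was at means of 2.08 and 0.235.

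*Cntn2*, also called TAG-1, is a contactin of growing axons (chr1:132509427-132543256, minus strand). It had 30 reads over the 6 iCreb5 libraries and 98 over the 6 tdTomato libraries. By library the reads were 20, 0, 7, 0, 3 and 0 in iCreb5 (3a, 3b, 3c, 4a, 5, 6) and 3, 24, 2, 21, 15 and 33 in tdTomato (3a, 3b, 3c, 4a, 5b, 6d). As normalised counts the groups overlapped through iCreb5 3a and 3c, and the gene was too low to be fitted.

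Among the other L1 genes, *Nrcam*, an ankyrin-binding molecule of axons (chr12:44328885-44601964, plus strand), stood at 233, 210 and 358, then 180, 138 and 166 in iCreb5. In tdTomato it stood at 223, 127 and 171, then 198, 114 and 209. The groups overlapped, and the log2 change of 0.28 (95% interval -0.23 to 0.78) was 0.61 in litter 3 and -0.063 in litters 4 to 6.

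*L1cam*, the founding L1 gene (chrX:73853778-73896105, minus strand), stood at 110, 36.8 and 81.5, then 42.0, 34.8 and 60.8 in iCreb5. In tdTomato it stood at 69.8, 57.8 and 84.97, then 84.5, 50.2 and 71.6. The groups overlapped, with a log2 change of -0.30 (95% interval -0.93 to 0.33). Its exons overlap those of *Arhgap4* on the same strand, which had means of 38.2 and 24.3.

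*Nfasc*, which clusters sodium channels at nodes (chr1:132564690-132741797, minus strand), stood at 71.6, 56.3 and 74.4, then 36.6, 39.0 and 11.5 in iCreb5. In tdTomato it stood at 41.9, 59.8 and 37.0, then 111, 33.5 and 43.7. The groups overlapped, and the log2 change of -0.26 (95% interval -1.15 to 0.64) was 0.55 in litter 3 and -1.07 in litters 4 to 6.

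**Figure D3:**
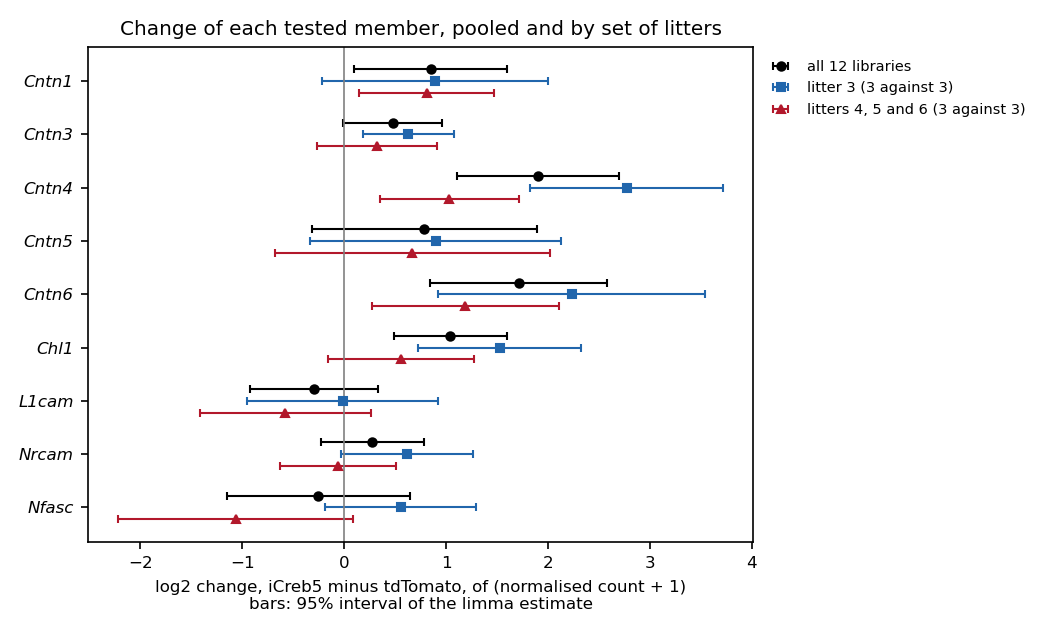
Log2 change (iCreb5 minus tdTomato) of the 9 fitted genes with 95% intervals as bars, over all libraries (black circles), in litter 3 (blue squares) and in litters 4 to 6 (red triangles). The litter 3 estimate lies above that of litters 4 to 6 for all 9 genes, and the intervals are wide. The share of all genes with this order was not counted.

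Litter 3, with 3 libraries of each group, and litters 4 to 6 together gave different sizes for the same contrast. *Cntn4* changed by 2.77 and 1.03 on the log2 scale in these sets, *Cntn6* by 2.23 and 1.19, and *Chl1* by 1.52 and 0.56. In litters 4 to 6 alone 0 of the 9 genes were called higher (1.91% of all genes), and in litter 3 alone 2 were, *Cntn4* and *Chl1* (2.36% of all genes). Only the fit of litters 4 to 6 had litter as a term, so these counts differ in power. In that fit the 95% intervals, before adjustment, were 0.35 to 1.71 for *Cntn4*, 0.27 to 2.10 for *Cntn6* and -0.16 to 1.28 for *Chl1*. The difference in change between the 2 sets was tested as an interaction. No gene of the 9, and 0.0% of all genes, passed at an adjusted p under 0.05 with limma, the only tool run for it. At an unadjusted p under 0.05, 2 of the 9 did, beside 8.96% of all genes. They were *Cntn4*, with a difference of 1.74 ± 0.56 (SE, adjusted p = 0.501), and *Nfasc*, with 1.62 ± 0.60 (adjusted p = 0.514). All 9 estimates were positive, but they come from the same 12 libraries, and the share of positive estimates over all genes was not counted. Protein-coding genes spanning at least 200 kb had a median log2 change of 0.24 in litter 3 and -0.0049 in litters 4 to 6.

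Genes were compared in level by normalised count per kb of merged exon. In tdTomato cells *Cntn3* was highest at 45.5 ± 15.1 (SD, n = 6). By mean *Nrcam* followed at 13.0 ± 3.36 and *Cntn1* at 9.56 ± 3.60, a step smaller than the larger of these SDs. *L1cam* (9.50), *Cntn4* (7.42), *Cntn5* (6.83), *Chl1* (5.61), *Cntn6* (4.37) and *Nfasc* (3.85) then followed, each step being smaller than the larger SD of its pair, and *Cntn2* was lowest at 1.72. In iCreb5 cells *Cntn3* was again highest at 61.8 ± 14.7. By mean *Cntn4* came next at 29.7 ± 17.7, above *Cntn1* by less than that SD. *Cntn1* (18.4), *Nrcam* (16.0), *Cntn6* (13.4), *Chl1* (11.6), *Cntn5* (9.81) and *L1cam* (8.31) followed within their spread, above *Nfasc* (3.41) and *Cntn2* (0.411).

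**Figure D4:**
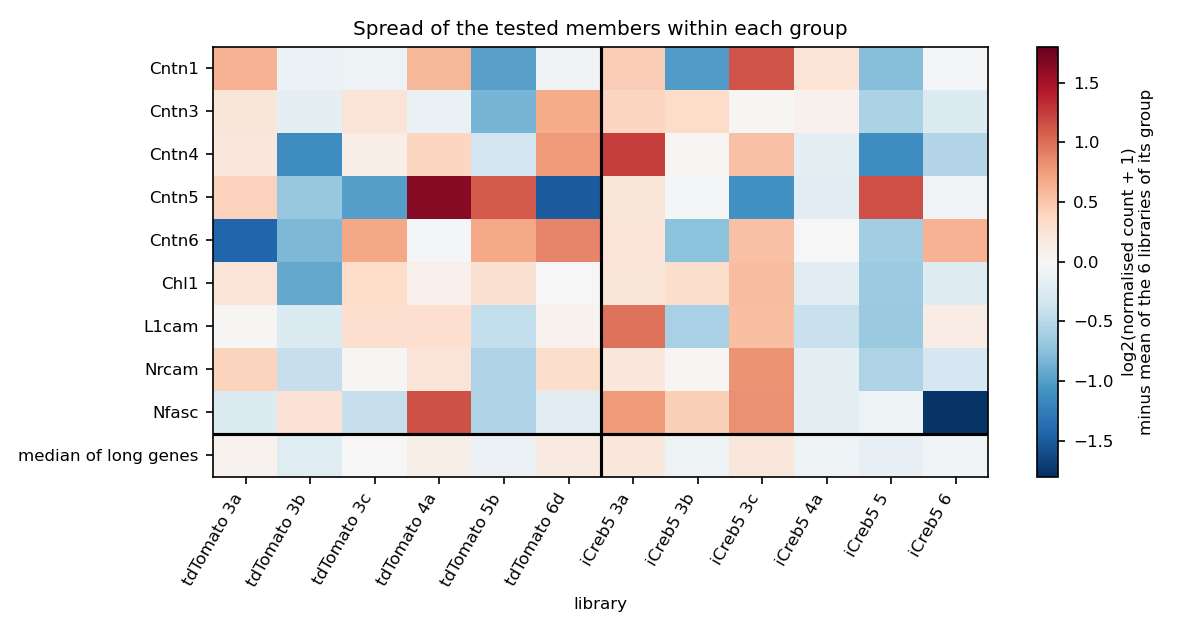
Level of each fitted gene in each library relative to its group mean on the log2(normalised count + 1) scale, red above and blue below, with the median of genes spanning at least 200 kb as the bottom row. Libraries iCreb5 5 and tdTomato 5b, both of litter 5, are each the lowest of their group for 5 of the 9 genes. In the bottom row iCreb5 5 and tdTomato 3b are the lowest of their groups.

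The genes also varied between libraries of a group. iCreb5 5 was lowest of its group for *Cntn3*, *Cntn4*, *Chl1*, *L1cam* and *Nrcam*, and tdTomato 5b for *Cntn1*, *Cntn3*, *L1cam*, *Nrcam* and *Nfasc*. iCreb5 3c was highest of its group for 4 of the 9 and 3a for 3. Protein-coding genes spanning at least 200 kb, as 7 of the 10 family genes do, held 2.47% of the summed signal in iCreb5 5 and 2.13% in tdTomato 5b, the lowest of each group, against 2.65% to 3.29% and 2.33% to 2.86% in the others. By the median log2 level of such genes that were fitted, iCreb5 5 (8.22) was again the lowest of its group. In tdTomato the lowest by that measure was 3b (8.05) and not 5b (8.165). Of the 881 such genes fitted, 10.3% were called higher and 3.75% lower. Their median log2 change was 0.087 over all libraries, 0.24 in litter 3 and -0.0049 in litters 4 to 6. The part of this in the family's values was not tested.

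Genes whose level followed that of the 3 called genes most closely, after each group mean was subtracted, were found among 12411 genes over the 12 libraries, as a description. They were *Zfp629*, *Slc14a1* and *Aqr* for *Cntn4* (Pearson r 0.963 to 0.95), *Tbkbp1*, *Pheta1* and *Arhgap23* for *Cntn6* (0.933 to 0.878), and *Itga4*, *Amotl1* and *Trp53inp1* for *Chl1* (0.953 to 0.945). The points share library depth and litter.

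Of 68 binding partners and relatives in 6 lists, 60 were fitted, of which 4 were higher, 3 were lower (5 without tdTomato 5b) and 53 did not pass. That is 11.7% called, beside 6.72% of all genes, and the median log2 change was 0.03. *Ncam2*, a neural adhesion molecule, rose 2.15-fold, from 360 ± 46.6 to 792 ± 202 (SD, n = 6 each, limma adjusted p = 0.000814). *Ntm*, a lipid-anchored adhesion gene, fell by 1.07 on the log2 scale, from 1616 ± 191 to 772 ± 108 (limma adjusted p = 5.13e-05). Both were without overlap between groups. They were the 2 calls among 16 other immunoglobulin adhesion genes fitted, where the most abundant gene not called, *Ncam1*, had a log2 change of 0.17 (adjusted p = 0.414).

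Of the 3 Caspr genes fitted out of 7, *Cntnap4* rose 1.89-fold, from 347 ± 102 to 655 ± 191 (limma adjusted p = 0.0193), with some overlap between groups, and *Cntnap2* had a log2 change of -0.13 (adjusted p = 0.890). Of 15 receptor phosphatases and ligands, *Aplp1*, an amyloid precursor relative, rose 1.69-fold, from 2022 ± 439 to 3370 ± 440 (limma adjusted p = 0.00394). *Bcan*, the matrix proteoglycan brevican, fell by 2.22 on the log2 scale, from 24.9 ± 9.50 to 6.22 ± 5.35 (limma adjusted p = 0.0316, edgeR 0.0512). The integrin *Itgb1* had a log2 change of 0.03 (adjusted p = 0.956).

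Of 9 semaphorin co-receptor genes, the ligand *Sema3a* rose 1.78-fold, from 2598 ± 513 to 4747 ± 1374 (limma adjusted p = 0.0155), and the receptor *Nrp1* had a log2 change of -0.42 (adjusted p = 0.202). Of 11 cytoskeletal linkers, *Ezr*, which ties membranes to actin, fell by 0.72 on the log2 scale, from 1314 ± 285 to 787 ± 97.7 (limma adjusted p = 0.00837), and its relative *Rdx* had a log2 change of -0.05 (adjusted p = 0.858). Of the 6 sheddases and kinases, limma, edgeR and DESeq2 each called 0, and 1 had an unadjusted p under 0.05. Their most abundant gene, the kinase *Fyn*, had a log2 change of 0.27 (adjusted p = 0.244).

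**Figure D5:**
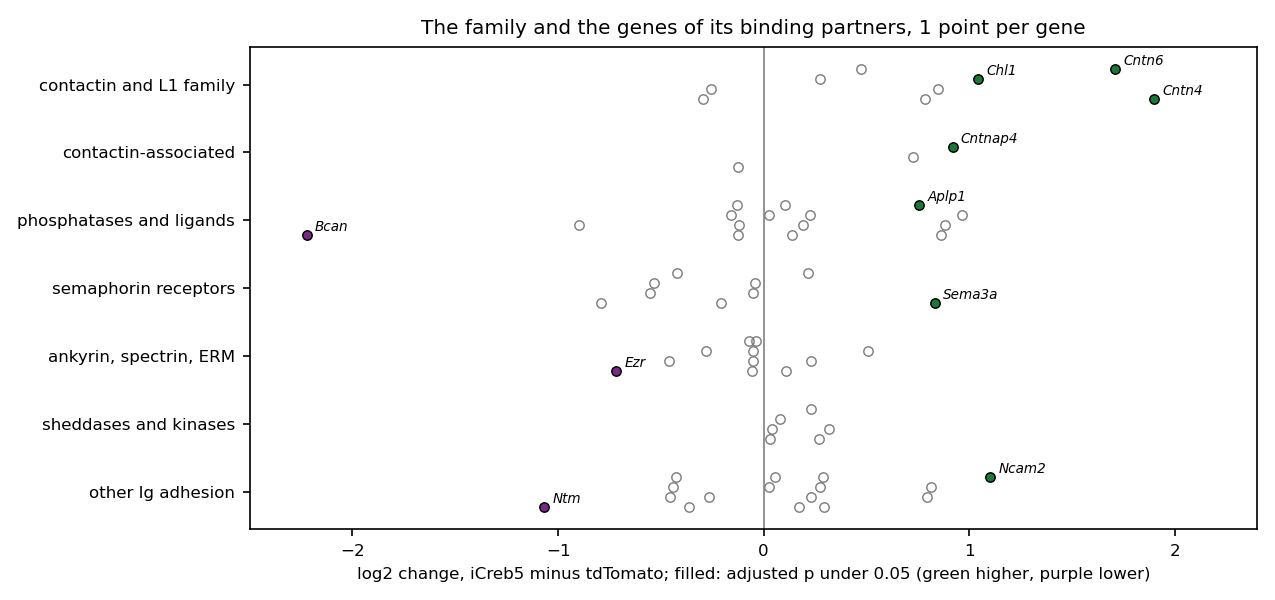
Log2 change (iCreb5 minus tdTomato) of the 9 fitted family genes (top row) and the 60 fitted partner genes by list, 1 point per gene, with genes past the threshold filled and named. The 7 named partner genes lie between -2.22 and 1.10, and the median of all partner genes is 0.03.

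Markers of other cell types differed between the groups. All 12 leukocyte markers were higher in iCreb5 cells, with a summed level of 2253 to 9999 against 562 to 1022 in tdTomato. Of 8 endothelial markers 5 were higher and 3 did not pass, at sums of 1567 to 3994 against 1220 to 1903. EdgeR called 5 of them higher and 1 lower, and DESeq2 6 higher and 1 lower. Of 9 neuron markers fitted out of 11, *Nefl*, *Nefm* and *Isl1* were higher and *Stmn2* lower, at sums of 7099 to 11374 against 1616 to 2356. By mean level, most of the summed signal in both groups came from the called markers. The other 5 fitted neuron markers did not pass. Their means in iCreb5 and tdTomato were 113 and 88.2 for *Elavl4*, 83.3 and 89.3 for *Prph*, 57.3 and 65.9 for *Snap25*, 53.4 and 37.1 for *Syt1*, and 24.8 and 26.6 for *Tubb3*. The 2 not fitted were *Elavl3*, at 1.87 and 0.0824, and *Rbfox3*, at 9.68 and 6.31. Of 11 Schwann cell and melanoblast markers fitted, 0 were higher and 3 lower (*Sox10*, *S100b* and *Ngfr*), at sums of 933 to 1272 against 1741 to 2801. Of 14 cartilage markers 13 were lower, as were 5 of 6 osteoblast and 1 of 5 mural cell markers. Limma and edgeR called 0 of 8 skeletal muscle, 0 of 6 epidermis and 0 of 5 tendon markers, DESeq2 called 0, 0 and 1, and 0, 0 and 2 had an unadjusted p under 0.05 with limma. The part of these cells in the changes of *Cntn4*, *Cntn6*, *Chl1* and the partner genes was not tested.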

How the data were processed

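RNA was measured in 12 libraries, grouped by title and litter from the labels. The deposited table holds normalised signal, judged from its values to be gene counts divided by a size factor, since 100% of values were whole multiples of 1 unit per library (tolerance 1e-06). FastQC, STAR, Salmon, DESeq2 and mm10 are named in the submitters' processing notes without roles, which do not state strand use. A P0 table, whose 8 columns match no labelled sample, was not used here.

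The contrast was fitted in R 4.3.3 by limma 3.58.1 (trend, two-sided) on log2(value + 1), without covariates, for the 16733 genes at 10 or more in at least 6 libraries. The threshold was a Benjamini-Hochberg adjusted p under 0.05 over all of them. A fold change is on the log2(value + 1) scale, and for low genes it depends on the value added and on the tool. For *Cntn6* the log2 change was 1.71, against 1.74 with 0.5 added, 1.54 with 5 added and 1.60 with edgeR. For *Cntn4* it was 1.90, against 2.01 with edgeR. Alternatives included edgeR 4.0.16 and DESeq2 1.42.0 on recovered reads, other scalings, filters and pseudocounts, litter as a block, and each library left out. The litter in the labels pairs the samples. Deviations from group means correlated between -0.242 and 0.346 across same-litter libraries, and between -0.259 and 0.22 across libraries of different litters. The fits were tested on simulated counts with independent libraries, the same dispersion for all genes and no litter effect. That test therefore does not cover differences between litters.

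All 10 family genes are named with values in every library. Of each partner list, the 3 largest changes past the threshold and the most abundant gene not past it are named, with the protein-coding genes flanking *Chl1* to *Cntn4* and the 3 genes most correlated with each called gene. Members, lists and rules were chosen with earlier results of these data known.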

Additional observations from a re-analysis of the deposited data

Results flagged for a closer look

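Within a group of 6, 3 values lay far from the nearest other library relative to the group's range, among 20 groups checked. Such a check picks out about 1 group in 20 by chance. *Cntn2* was at 16.9 in iCreb5 3a, with the other iCreb5 libraries at 3.54 or less. *Chl1* was at 34.6 in tdTomato 3b, with the other tdTomato libraries at 66.0 or more. *Nfasc* was at 111 in tdTomato 4a, with the others at 59.8 or less.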

How the results depend on the processing

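Under the alternatives run, 3 family genes were called higher except with litters 4, 5 and 6 alone (0) and in 6 settings that called 2. *Chl1* lost its call with litter 3 averaged in the replicate block (0.80, adjusted p = 0.143) and without iCreb5 3a, 3b or 3c. *Cntn6* lost its call with litter 3 alone (2.23, adjusted p = 0.068) and was not fitted at a minimum value of 50. Leaving out each library gave 2 to 3 higher and 0 lower. For all genes it gave 484 to 705 higher and 369 to 511 lower, and for partner genes 3 to 5 higher and 2 to 5 lower. With litter as replicate block over all 12 libraries 728 genes were lower, and it changed no call of the family genes. Litter 3 alone gave 395 higher and 292 lower genes and 2 higher partner genes. Litters 4 to 6 alone gave 320 higher genes, and 2 higher and 7 lower partner genes. Partner genes lower were 5 with DESeq2, 5 with litter 3 averaged in the replicate block, and 5 without litter 5, a setting chosen after seeing the data. The cause was not tested. Rescaling libraries to equal totals gave 799 higher and 382 lower genes, against 648 and 477. The sign turned for *Nrcam* in litters 4 to 6 (-0.063) and for *Nfasc* in litter 3 (0.55), without iCreb5 6 (0.10, in a range of -0.42 to 0.10 when each library was left out in turn), and without iCreb5 5 and 6 (0.21, chosen after seeing the data). Depth limits *Cntn2* and the lowest *Cntn6* values most.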
